A study of Mus musculus with 20 samples.

Results

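Galectins are sugar-binding proteins that immune cells and vessel walls use to adhere to one another, and 6 genes of this family and its closest partner were followed over the day in lymphatic endothelial cells (LECs) of mouse skin. The 6 genes are Lgals1, Lgals3, Lgals7, Lgals8 and Lgals9, which encode galectins, and Lgals3bp, which encodes the galectin-3 binding protein. They were taken by gene symbol from the 24062 symbols in the count files. They were chosen by a readout of the same libraries, since the difference of Lgals3 among times of day, measured in an earlier analysis of these counts, was known when the list was made. The time-of-day values of the 6 genes are therefore a description. Where the number of them that passed a threshold is given, nothing is read from it.

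The cells were CD31+podoplanin+ LECs sorted from ear skin of wild type C57BL/6 mice (C57BL/6N in the study's methods) on post natal day 56, with no treatment, in a cycle of light and dark. They were collected at ZT1, ZT7, ZT13 and ZT19, where zeitgeber time (ZT) counts hours from lights on. Each time point had 5 replicates, and each replicate was a pool of ears from 2 mice, so n counts pools of mice. The question asked of these 20 libraries was which transcripts of LECs vary with the time of day.

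Between 4475111 and 42002363 reads per library were assigned to genes. Set against these plus the reads counted outside genes, they made up between 12.7% and 81.6%, called the gene share below. At ZT19 the total was between 10809823 and 36022409, and at ZT1 between 5902909 and 8675905. The gene share was 35.01% to 81.6% at ZT19 and 20.2% to 29.5% at ZT1, which do not overlap, and it ran from 12.7% to 62.3% at ZT7 and from 20.1% to 79.9% at ZT13. The 2 libraries with the highest gene share were replicate 5 of ZT13 (79.9%) and replicate 1 of ZT19 (81.6%). All 8 LEC markers were detected, among them Prox1 with 2084 ± 773 to 3523 ± 833 normalized counts and Lyve1 with 14349.6 ± 5206 to 19925 ± 5173 (SD, n = 5, range of the 4 time points). Markers of another skin cell type were abundant too, although the study's methods report a high purity in checks after each sort. The summed level of 12 keratinocyte markers was between 14193 and 34916 normalized counts per library at ZT13 and between 95531 and 186487 at ZT19, and all 12 were lowest at ZT13. Counts were normalized by dividing them by each library's effective size (TMM), scaled to a geometric mean of 1 over the 20 libraries.

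Galectins recognise galactose-containing sugars on glycoproteins through a conserved carbohydrate recognition domain. They are made without a signal peptide, leave cells by an unconventional route and crosslink glycoproteins at the cell surface and in the matrix. Galectin-1 and galectin-7 are prototype galectins with a single domain that pair up. Galectin-3 is the chimera type, in which the domain is joined to a tail that lets molecules assemble. Galectin-8 and galectin-9 are tandem-repeat galectins with a pair of linked domains. In skin, galectin-7 is known from keratinocytes and galectin-3 from the epidermis, macrophages and endothelium, while galectin-8 is known to bind podoplanin on LECs.

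Of the 6 genes, Lgals3 and Lgals7 had the largest differences between time points, and the stretches in front of their RefSeq starts are shown for that reason. The sequences are RefSeq's on GRCm38.p6, 5′ to 3′ on the gene's strand, and cover the part of the 250 bases before the RefSeq start that lies outside exons. For Lgals3 this is chr14:47373610-47373812 (203 bases, plus strand) and for Lgals7 chr7:28864136-28864228 (93 bases, plus strand). The RefSeq starts lie inside the genes as GENCODE M21 draws them, 6109 bases from the GENCODE start for Lgals3 and 533 for Lgals7, so these stretches are upstream of the RefSeq transcripts only. Capitals mark a GC box.
Lgals3: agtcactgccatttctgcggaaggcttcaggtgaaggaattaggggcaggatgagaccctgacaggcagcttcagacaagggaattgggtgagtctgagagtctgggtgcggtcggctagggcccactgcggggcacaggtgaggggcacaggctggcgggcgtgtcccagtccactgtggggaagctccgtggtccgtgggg
Lgals7: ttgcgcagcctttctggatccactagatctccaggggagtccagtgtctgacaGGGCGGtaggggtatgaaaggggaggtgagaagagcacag
The 250 bases were searched on both strands for 6 motifs in the 5 of 6 genes with a RefSeq promoter entry. The motifs were the E-box (CACGTG) that clock activators bind, the D-box (TTATGNAA), the nuclear receptor half-site (AGGTCA), the AP-1 motif (TGANTCA), the GC box (GGGCGG) and the TATA box (TATAAA). Among 32851 promoters of the same length, 6.02% held the E-box, 3.07% the D-box, 14.0% the half-site, 6.75% the AP-1 motif, 32.7% the GC box and 12.4% the TATA box. The GC box was found in Lgals7, 197 bases before the start, and in Lgals3, 7 bases before the start in a part that an annotated exon covers. These windows of Lgals3, Lgals3bp, Lgals7, Lgals8 and Lgals9 held none of the other 5 motifs. A match is a run of letters and not a measured binding site.

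All 6 genes had counts in all 20 libraries, from at least 140 reads for Lgals1 to at most 31054 for Lgals3, and all 6 passed the filter on low counts. Levels were compared between genes as normalized counts per kb of exon (GENCODE M21, GRCm38). Lgals7 had the highest mean level per kb, 2954 ± 3596 (SD, n = 20 libraries), above 99.3% of the 19002 tested genes with a length. Lgals3 followed with 2007 ± 1328 per kb, above 98.9% of those genes. The spread of Lgals7 was wider than the gap between these genes, and Lgals7 was above Lgals3 in 13 of 20 libraries. Lgals9 had 866 ± 393 per kb and Lgals1 826 ± 671, and neither was separated from the other beyond its spread (Lgals9 was higher in 12 of 20 libraries). Lgals8 had 272 ± 86.7 per kb and Lgals3bp 174 ± 92.2, with Lgals8 the higher in 15 of 20 libraries. Lgals3 was above Lgals9 in 18 of 20 libraries and Lgals1 above Lgals8 in 18 of 20.

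**Figure D1:**
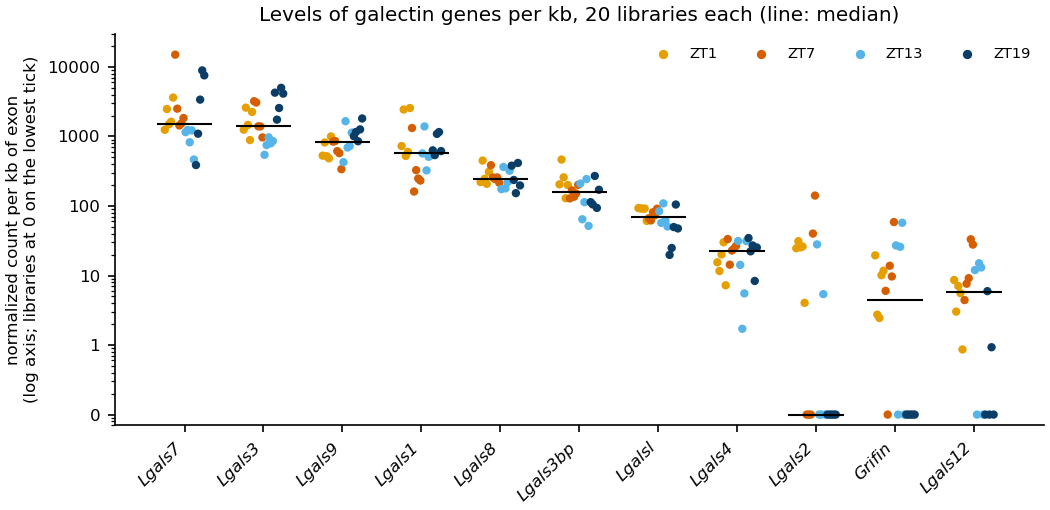
Normalized counts per kb of exon (log axis) of the 6 genes and of 5 further galectin genes, 1 point per library coloured by time point, with a line at the median of 20 libraries and libraries without a count placed on the lowest tick. Lgals7 and Lgals3 lie at the top, and Lgals2, Grifin and Lgals12 have libraries at 0.

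Lgals3, on chromosome 14 of GRCm38 from 47367751 to 47386160 (plus strand), encodes galectin-3. At ZT1 its normalized counts in replicates 1 to 5 were 2326, 4826, 2725, 1648 and 4179, and at ZT7 they were 5969, 5722, 2600.2, 2589 and 1801. At ZT13 they were 1012, 1398, 1803, 1479.5 and 1594, and at ZT19 7924, 3244, 4767, 9298 and 7675. The lowest library of ZT19 was thus above the highest of ZT13, while the libraries of ZT1 and ZT7 spanned the gap and overlapped with both. The mean was 1457 ± 292 (SD, n = 5) at ZT13 and 6582 ± 2491 at ZT19, a 4.52-fold difference or 2.18 on the log2 scale (SE 0.41). ZT13 was also below ZT1 by -1.11 (SE 0.39) and below ZT7 by -1.36 (SE 0.40) on the log2 scale, with libraries that overlapped. The spread between replicates was narrowest at ZT13, where the highest library was 1.78 times the lowest, against 2.87 times at ZT19.

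Lgals3bp, on chromosome 11 from 118392751 to 118402092 (minus strand), encodes a secreted glycoprotein that binds galectin-3 and is itself no galectin. Its normalized counts were 583, 1325, 735, 368 and 569.9 at ZT1, 366, 477, 387, 431 and 574 at ZT7, 598, 183, 323, 695 and 147 at ZT13, and 323, 299.8, 770.0, 267 and 487 at ZT19. Every pair of time points overlapped. ZT1 had the highest mean, 716 ± 365, and ZT13 the lowest, 389 ± 246, a 1.84-fold difference. Between ZT13 and ZT19, where Lgals3 differed by 2.18, Lgals3bp differed by 0.14 (SE 0.42) on the log2 scale.

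Lgals7, on chromosome 7 from 28863853 to 28866284 (plus strand), encodes galectin-7, the galectin of stratified epithelia. Its normalized counts were 1155, 2300.0, 1388, 1509 and 3362 at ZT1, and 13923, 2326, 1333, 1429 and 1707 at ZT7. They were 1069, 1147, 764, 1132 and 432 at ZT13, and 359.6, 1015, 3139, 8263 and 7008 at ZT19. The libraries of ZT13 lay below all those of ZT1 and of ZT7, but 1 library of ZT19 lay below all of ZT13. The log2 difference was 2.12 (SE 0.67, 4.35-fold) between ZT13 and ZT19 and -2.19 (SE 0.68) from ZT7 to ZT13. ZT7 replicate 1 had the highest value of the 20 libraries, and without it the mean of ZT7 fell from 4143 ± 5480.5 to 1699 ± 447 (SD, n = 4). Within ZT19 the highest library was 23.0 times the lowest, the widest spread of the 24 combinations of gene and time point.

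Lgals1, on chromosome 15 from 78926725 to 78930465 (plus strand), encodes galectin-1, a secreted prototype galectin of mesenchymal and endothelial cells. Its normalized counts were 657, 2204, 474, 542 and 2313 at ZT1, 1195, 146, 296, 224 and 209.7 at ZT7, 515, 1259, 294, 460.5 and 481 at ZT13, and 570.3, 487, 984, 1045 and 556 at ZT19. The highest mean fell at ZT1, 1238 ± 935, where replicates 2 and 5 stood well above the other 3. The lowest fell at ZT7, 414 ± 439.6, where replicate 1 had 1195 and the next highest library 296. ZT7 was below ZT1 by -1.58 (SE 0.54) on the log2 scale, with libraries that overlapped. Fibroblast and LEC markers differed between these time points too. Of 6 fibroblast markers 5 had their lowest mean at ZT7, while 2 had their highest at ZT1 and 3 at ZT19. Their summed levels were between 813 and 3988 normalized counts per library at ZT7 and between 4391 and 15904 at ZT1. Of 8 LEC markers 7 had their highest mean at ZT1, while 3 had their lowest at ZT7 and 4 at ZT19. Their sums were between 78705 and 104600 at ZT1 and between 45686 and 96319 at ZT7. Over the 20 libraries Lgals1 had a Pearson correlation of 0.01 with the fibroblast score and 0.60 with the LEC score (defined below). Within time points these were -0.32 (adjusted permutation p = 0.248) and 0.64. The part of either cell type in the level of Lgals1 between time points was not tested. Between ZT13 and ZT19 the difference was 0.27 (SE 0.53).

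Lgals8, on chromosome 13 from 12439415 to 12464944 (minus strand), encodes galectin-8. Its normalized counts were 815, 1659, 909.8, 769 and 1147 at ZT1, 1423, 948, 897, 949 and 796 at ZT7, 645, 1345, 661, 810.1 and 1184 at ZT13, and 1402, 873, 565, 1534 and 729 at ZT19. Its time-point means were the closest of the 6 genes, from 929 ± 318 at ZT13 to 1060.1 ± 365 at ZT1, a ratio of 1.14. The log2 difference between ZT13 and ZT19 was 0.13 (SE 0.33). Lgals8 overlaps Heatr1 on the opposite strand over 155 exon bases, and 57 of the 3880 stretches of 100 bases in its transcripts also occur in Heatr1, so a small part of its reads could belong to either gene.

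Lgals9, on chromosome 11 from 78962974 to 78984946 (minus strand), encodes galectin-9, a ligand of the immune receptor TIM-3. Its normalized counts were 1131, 1751, 1109.8, 1035 and 2136 at ZT1, 1800.4, 1838, 1316, 1229.9 and 723 at ZT7, 912, 3544, 1482, 1553 and 2427 at ZT13, and 2155, 2479, 1823, 2701 and 3876 at ZT19. It was the other gene with its highest mean at ZT19, 2607 ± 783, and its lowest mean was 1381 ± 459.6 at ZT7. ZT19 was above ZT7 by 0.92 (SE 0.36) and above ZT13 by 0.39 (SE 0.36) on the log2 scale. Over the 20 libraries Lgals9 had a Pearson correlation of 0.67 with the gene share (log2 odds) and of -0.79 with the score of 8 myeloid markers, of which 7 had their lowest mean at ZT19. These values share the shift between time points, and within time points they were 0.49 (adjusted permutation p = 0.198) and -0.68. With the gene share as a covariate its difference between ZT13 and ZT19 was 0.15 (SE 0.36) and with a score of 12 keratinocyte markers 1.17 (SE 0.63), and the part of the myeloid markers in it was not tested. The libraries of each pair of time points overlapped, by a small margin between ZT7 and ZT19, where the highest of ZT7 had 1838 and the lowest of ZT19 1823.

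**Figure D2:**
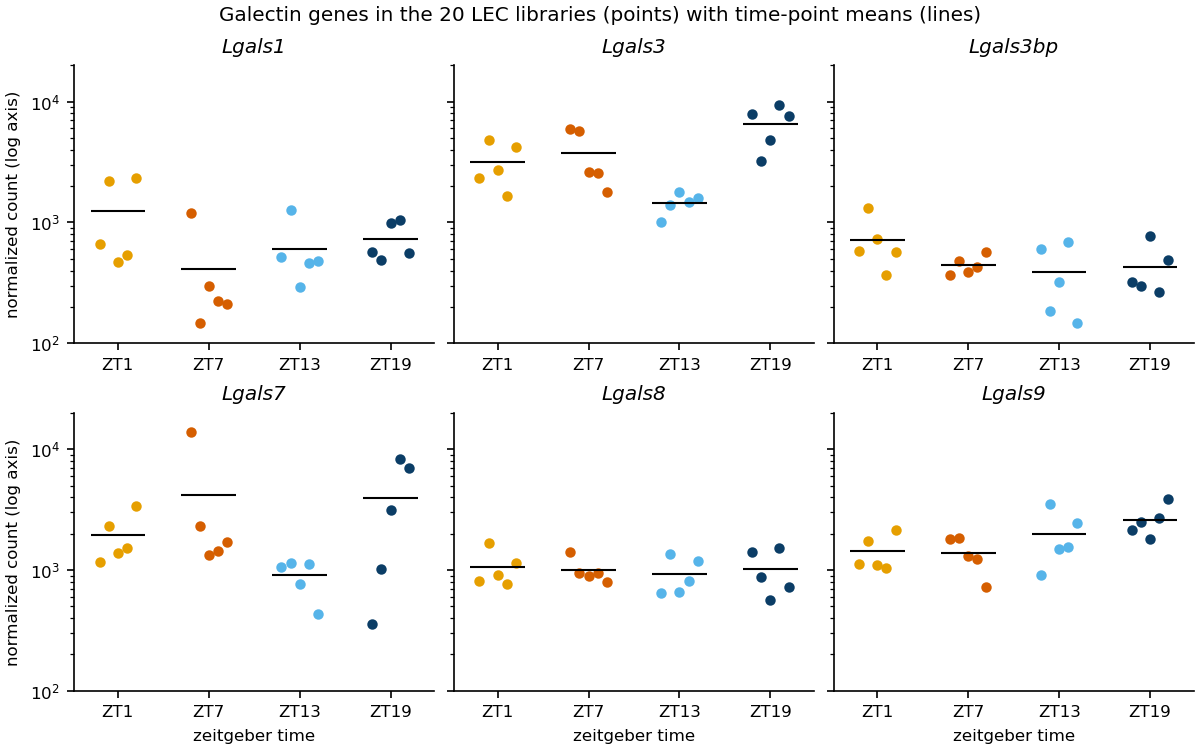
Normalized counts (log axis) of the 6 genes at ZT1, ZT7, ZT13 and ZT19, with 1 point per library and a line at the mean of 5 libraries. Lgals3 is the panel in which all points of ZT19 (3244 to 9298) lie above all points of ZT13 (1012 to 1803), and Lgals8 the panel with the flattest means.

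Among the 4 time points, 81 of 19209 genes tested (0.422%) had an adjusted p of 0.05 or less (edgeR, quasi-likelihood, adjusted over all genes), and of the 6 genes Lgals3 was called. Between ZT13 and ZT19 the test called 113 genes (0.588%), 96 of them higher and 17 lower at ZT19, and again Lgals3 alone of the 6. For a 24-h cosine curve 6 genes passed (0.0312%) and none of the 6 genes did, while 1 had an unadjusted p under 0.05 (9.24% of all genes did) and DESeq2 called 0 (0.390% of all genes). An unadjusted p under 0.05 was reached by 4 of the 6 among the 4 time points (15.7% of all genes) and by 2 of the 6 between ZT13 and ZT19 (19.2%). Of all genes, 359 (1.87%) had libraries of ZT19 that were all above those of ZT13, and of the 6 genes Lgals3 was such a gene. Nothing is read from these counts, since Lgals3 was known to differ when the genes were chosen. The call of Lgals3 among the 4 time points was kept without ZT1 replicates 2 or 5, ZT7 replicates 1, 2 or 5, ZT13 replicate 3 or ZT19 replicate 2, and it was lost (0 of 6 called) without any of the other 13 libraries. It was also lost with the replicate number as a block, with the gene share or the keratinocyte score described below as a covariate, and without the 2 libraries with the highest gene share. As a description, the log2 difference of Lgals3 between ZT13 and ZT19 ran from 2.02 to 2.35 when single libraries were left out. This difference was 2.17 with the block, 1.94 with the gene share and 1.60 with the keratinocyte score. Without those 2 libraries the log2 difference of Lgals3 between ZT13 and ZT19 was 2.14 and that of Lgals7 2.24.

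The 6 genes had a median log2 difference of 0.33 between ZT13 and ZT19, beside -0.22 for all genes, of which 8094 of 19209 were above 0. With the stricter filter of 10 counts in 10 libraries the medians were 0.32 for the 6 genes and 0.02 for all genes, and with the gene share as a covariate 0.39 and 0.22. They were 1.24 and -0.57 with the keratinocyte score as a covariate and 0.20 and -0.39 with DESeq2, and the median of the 6 genes was 0.72 without ZT13 replicate 2. All 6 values were above 0 in the main setting, but those of Lgals3bp and Lgals8 changed sign in others. Lgals3bp was below 0 with DESeq2, its size factors or the keratinocyte score as a covariate, and without ZT13 replicates 2 or 5 or ZT19 replicate 3 (-0.03, -0.07 and -0.17). Lgals8 was below 0 with the gene share as a covariate (-0.02) and without ZT19 replicates 1 or 4 (-0.0037 and -0.06). For 4 of the 6, Lgals1, Lgals3bp, Lgals8 and Lgals9, the difference was within 0.40 and close to its own standard error or below it. With DESeq2 size factors the value of Lgals3bp was -0.04. Fitted to a 24-h curve, Lgals1 and Lgals3 peaked at 22.5 h and 22.6 h with amplitudes of 0.66 and 0.69 on the log2 scale. Lgals9 peaked at 17.2 h (amplitude 0.51), Lgals3bp at 1.25 h (0.44), Lgals7 at 1.23 h (0.55) and Lgals8 at 0.50 h (0.10). Since 4 time points lie 6 h apart and the curves of these genes did not pass the test, these hours describe the fitted curves and are no phases.

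**Figure D3:**
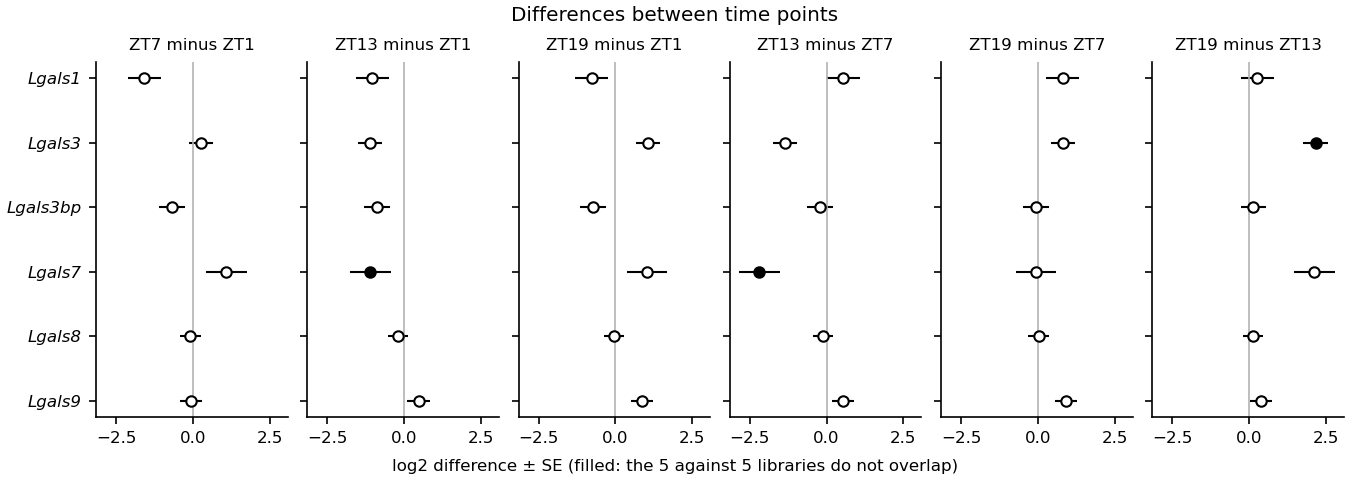
Log2 differences between each pair of time points for the 6 genes, as points with bars of 1 SE, filled where the 5 libraries of one time point do not overlap with the 5 of the other. Filled points are Lgals3 for ZT19 minus ZT13 and Lgals7 for ZT13 minus ZT1 and ZT13 minus ZT7.

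The keratinocyte markers moved between time points in the same direction as Lgals3 and Lgals7. Their score, the mean of the centred log2 normalized counts of the 12 markers, was between -2.85 and -0.39 in the libraries of ZT13 and between -0.05 and 1.52 in those of ZT19. Of the 12 markers, 8 had their highest mean at ZT19 and 6 were called between ZT13 and ZT19. Over the 20 libraries Lgals3 had a Pearson correlation of 0.72 with this score and Lgals7 of 0.49, values that share the shift between time points. After the time-point means were subtracted from both, the correlation was 0.30 for Lgals3 and 0.21 for Lgals7 (adjusted permutation p = 0.248 and 0.382 over 30 relations). With the score as a covariate the log2 difference between ZT13 and ZT19 was 1.60 for Lgals3 (SE 0.70, against 0.41 without the score) and 1.49 for Lgals7. Lgals3 was no longer called, in a fit that called 0 of 19209 genes between ZT13 and ZT19. In bulk RNA, more cells of a type and more RNA per cell cannot be told apart, and the part that keratinocyte RNA has in the levels of Lgals3 and Lgals7 was not tested.

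Relations were tested within time points, since the genes were chosen by a difference between them. Such a difference is judged against the spread between replicates, so these relations are not wholly free of the choice. The marker lists, too, were chosen with earlier results known. The 6 genes were related to 4 marker scores (keratinocyte, fibroblast, LEC and myeloid) and to the gene share on a log2 odds scale, 30 relations in all, with two-sided permutation tests over the 20 libraries. Of these, 2 passed an adjusted p of 0.05 and 11 had an unadjusted p under 0.05. Lgals1 was higher in libraries with a higher LEC score (Pearson's r = 0.64, permutation p = 0.00293, adjusted p = 0.0439). Spearman's rho was 0.58 (permutation p = 0.0109, adjusted p = 0.0652), and r was 0.67 without the 2 libraries farthest from the median score. Lgals8 was lower in libraries with a higher myeloid score (r = -0.68, permutation p = 0.00169, adjusted p = 0.0439), with rho = -0.59 (permutation p = 0.0089, adjusted p = 0.0652) and r = -0.61 without the 2 farthest libraries. Lgals9 had the same size of correlation with the myeloid score but missed the threshold (r = -0.68, permutation p = 0.00526, adjusted p = 0.0526, rho = -0.66, r = -0.82 without the 2 farthest libraries), and Lgals3 had r = -0.51 (adjusted permutation p = 0.0807). The myeloid markers were sparse, with summed levels between 3.57 and 191 normalized counts at ZT19. Gene and score share each library's size factor, and with DESeq2 size factors neither relation passed (r = 0.53 and -0.60). The relation of Lgals1 passed without ZT7 replicates 2 or 3, ZT13 replicate 5 or ZT19 replicates 1, 2 or 5, with r from 0.57 to 0.74 over all 20 single omissions, and did not pass without any of the other 14 libraries. The relation of Lgals8 passed without 9 of the 20 libraries (ZT7 replicates 2 or 3, ZT13 replicates 2, 3 or 5, ZT19 replicates 1, 2, 4 or 5), with r from -0.79 to -0.63.

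**Figure D4:**
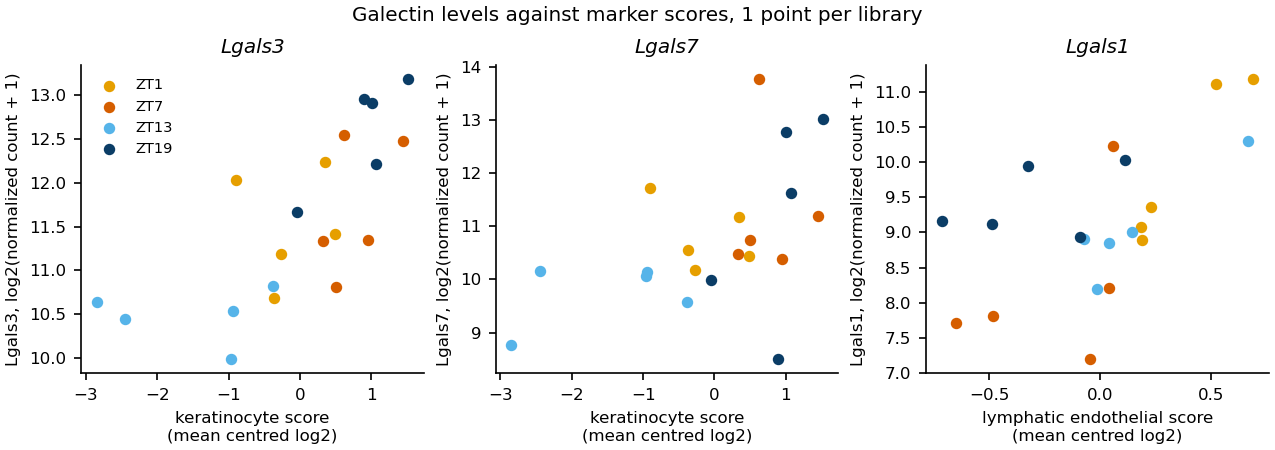
Log2(normalized count + 1) of Lgals3 and Lgals7 against the keratinocyte score and of Lgals1 against the LEC score, 1 point per library coloured by time point. The keratinocyte scores of ZT13 run from -2.85 to -0.39 and hold the 4 lowest of the 20, while ZT1 replicate 5 (-0.90) lies below the fifth, and Lgals1 is highest in 2 libraries of ZT1 with high LEC scores.

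The genes were also related to each other within time points, 15 relations that were chosen after the data had been seen. Lgals3 and Lgals9 varied together (r = 0.63, permutation p = 0.0027, adjusted p = 0.0238, rho = 0.63, r = 0.69 without the 2 farthest libraries). So did Lgals8 and Lgals9 (r = 0.60, permutation p = 0.00793, adjusted p = 0.0238, rho = 0.67) and Lgals3 and Lgals8 (r = 0.60, permutation p = 0.00727, adjusted p = 0.0238, rho = 0.57). Lgals1 passed by Pearson's r with Lgals7 and Lgals8 (0.59 for both) but not by Spearman's rho (adjusted permutation p = 0.055 and 0.0728). Without the 2 farthest libraries r was 0.63 for Lgals8 and Lgals9 and 0.51 for Lgals3 and Lgals8. It was 0.58 for Lgals1 and Lgals7 and 0.47 for Lgals1 and Lgals8. Each pair shares its libraries' size factors, and with DESeq2 size factors none of these 5 relations passed (r from 0.48 to 0.52, adjusted permutation p from 0.104 to 0.141). When single libraries were left out, all 5 missed the threshold without ZT7 replicate 1. Lgals3 and Lgals8 also missed it without ZT1 replicate 2 or ZT13 replicate 1, Lgals8 and Lgals9 without ZT13 replicates 1 or 2 or ZT19 replicate 3, Lgals1 and Lgals7 without ZT13 replicate 3, and Lgals1 and Lgals8 without ZT13 replicate 2. Over these omissions r of Lgals3 and Lgals9 ran from 0.55 to 0.73, and that of Lgals1 and Lgals7 from 0.39 to 0.67. Lgals3bp passed with none of the 5 galectins, and its r with Lgals3 was 0.01 (adjusted permutation p = 0.988).

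Galectins act through partners, and 49 genes were listed beside the 6: 29 counter-receptors and other binding partners, 14 enzymes that build or cap galectin ligands on glycans, and 6 other galectin genes. Of these, 48 were tested and 1 was called between ZT13 and ZT19, Cdh1, beside 0.588% of all genes. An unadjusted p under 0.05 was reached by 7 of the 48 (14.6%), beside 19.2% of all genes, and DESeq2 called 4 (Cdh1, Spn, Gcnt1 and Grifin), beside 9.24% of all genes. Cdh1 encodes E-cadherin, the adherens junction protein of epithelia, whose turnover at the surface galectins can alter. It measured 444 ± 207 normalized counts at ZT13 (from 195 to 690.3) and 1488 ± 822 at ZT19 (from 566 to 2407), a log2 difference of 1.75 (SE 0.42, adjusted p = 0.0474, edgeR's quasi-likelihood test over all genes). The libraries overlapped, and Cdh1 moved in the same direction as the keratinocyte score given above, whose part in its level was not tested. The call of Cdh1 was kept without ZT7 replicates 1 or 2, ZT13 replicates 3 or 5 or ZT19 replicates 1 or 5 and lost without any of the other 14 libraries, with adjusted p-values from 0.0199 to 0.106. It was also lost with DESeq2 size factors in edgeR (adjusted p = 0.0724), with library totals as the only scaling (0.0632), with the gene share (0.0980) or the keratinocyte score (0.330) as a covariate, with the replicate number as a block (0.121), and in a fit of ZT13 and ZT19 alone (0.185). The log2 difference in these fits was 1.54 with DESeq2 size factors, 1.68 with library totals, 1.81 with the gene share, 1.11 with the keratinocyte score, 1.61 with the block and 1.74 with ZT13 and ZT19 alone. Without ZT19 replicate 2, Vtn was called in its place.

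Of the 29 counter-receptors and other partners, 12 were higher at ZT19 than at ZT13, with a median log2 difference of -0.17, beside -0.22 for all genes, a value that was 0.02 with the stricter filter and 0.22 with the gene share as a covariate. Cd44, a hyaluronan receptor that galectins bind, went from 372 ± 294 normalized counts at ZT13 to 771 ± 254 at ZT19, a log2 difference of 1.05 (SE 0.43) that did not pass (adjusted p = 0.175, edgeR). Pdpn, the LEC glycoprotein that galectin-8 binds and that the cells were sorted by, had 1743 ± 1226 at ZT13 and 1274 ± 968 at ZT19. Itgb1, the integrin chain bound by several galectins, had 4097 ± 764 and 3839 ± 766, and Lamp1, a lysosomal glycoprotein rich in galectin ligands, 5239 ± 2015 and 6776 ± 1397. Of the 14 glycan enzymes, 5 were higher at ZT19, with a median of -0.13. Mgat5, which adds the N-glycan branch that galectin-3 prefers, measured 148 ± 118 at ZT13 and 109 ± 74.7 at ZT19, and Mgat1, which starts complex N-glycans, 1032 ± 510.4 and 1369.8 ± 789. Among the 4 time points 0 of the 48 genes were called by edgeR and 0 by DESeq2 (2.96% of all genes), and 7 had an unadjusted p under 0.05 (14.6%, beside 15.7% of all genes). For the 24-h curve 0 were called by either tool, and 3 had an unadjusted p under 0.05 (6.25%, beside 9.24% of all genes).

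**Figure D5:**
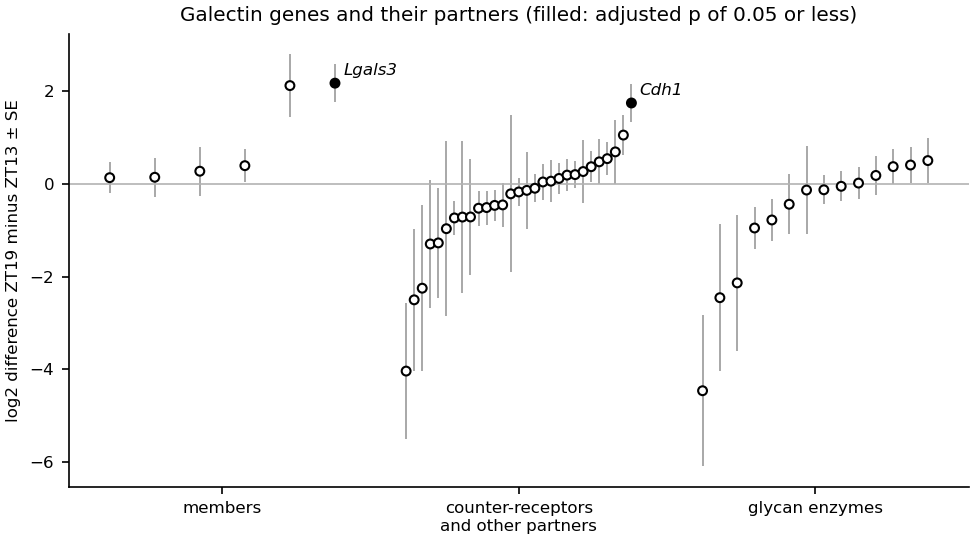
Log2 difference ZT19 minus ZT13 with bars of 1 SE for the 6 genes, 29 counter-receptors and other partners and 14 glycan enzymes, ordered by size within each list and filled at an adjusted p of 0.05 or less over all genes. Among the partners Cdh1 (1.75) is the filled point, and the widest bars belong to genes with few counts.

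The other galectin genes were at lower levels than the 6. Lgalsl, which encodes a galectin-like protein, had 70.8 ± 24.8 normalized counts per kb (SD, n = 20 libraries), below Lgals3bp in 19 of 20 libraries. Lgals4, known from the gut lining, had 20.4 per kb on average and Lgals12, known from fat cells, 7.72. Lgals2 and Grifin were listed with 0 counts in all 5 libraries of ZT19, although these were among the deeper libraries, and had totals of 138 and 109 counts over the 20 libraries. Their log2 differences depend on the handling of the zeros and are not given. Lgals6 had 85 counts in all and did not pass the filter.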

How the data were processed

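RNA was copied to full-length cDNA with SMART-Seq v4, made into Nextera XT libraries, which do not keep the strand, and read in single-end reads of 100 nucleotides. Per the processing notes of the submitters, STAR aligned the reads to mm10, HTSeq (1.0.0) counted them and DESeq2 (2.11.40.6) was used. The authors deposited raw counts per gene symbol. The gene annotation they counted on is not given in the sources used here. Rows that name no gene were left out of library sizes and tests, and reads on no gene were a median of 72.6% (18.4% to 87.3% per library) of the reads counted in or outside genes.

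For testing, edgeR 4.0.16 in R 4.3.3 was fitted to all 20 libraries (TMM scaling, filterByExpr within time points, quasi-likelihood), and 19209 genes were tested with a threshold of 0.05 on the Benjamini-Hochberg adjusted p. The common biological coefficient of variation was 1.00. On simulated counts in which 196 genes had a log2 change of 3, the test between ZT13 and ZT19 called 117 of them and 4 unchanged genes. Log2 values used a pseudocount of 1, and correlations 100000 permutations within time points.

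The 6 genes and the lists of partners and markers were chosen with earlier results of these data known. Named genes are the 6, listed genes that passed a test or are named for their role, and for each of the 6 the 3 genes most like it. Grifin, Spn, Gcnt1, Vtn and Cd44 were named after their values were seen. Adgre1 is listed as Emr1, and the T-cell marker Trac was not found. Of the 6 genes, 5 matched a RefSeq promoter, and Lgals1 did not. Alternatives were DESeq2 1.42.0, its size factors in edgeR, library totals, other filters, the replicate number as a block, covariates, a fit of ZT13 and ZT19 alone and each library left out. The omission of the 2 libraries with the highest gene share, and the alternatives for the relations among the 6 genes, were added after the data had been seen. No 2 libraries were identical (highest correlation 0.927).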

Additional observations from a re-analysis of the deposited data

Results flagged for a closer look

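A library stood apart from its 4 replicates in 1 of the 24 combinations of gene and time point, and chance gives about 1.2. This was Lgals7 at ZT7, where replicate 1 was the highest, and the gap to the nearest library was 0.763 of the whole range on the log2 scale. Its normalized count was 13923, against 1333 to 2326 in the other 4 libraries.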

How the results depend on the processing

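Among the 4 time points the number of the 6 genes called went from 1 to 0 with the replicate number as a block, with the keratinocyte score or the gene share (log2 odds) as a covariate, and without the 2 libraries with the highest gene share, and it ran from 0 to 1 when single libraries were left out. Between ZT13 and ZT19 it went from 1 to 0 with the keratinocyte score, a setting in which 0 genes of all were called. The count of partner genes called between ZT13 and ZT19 went from 1 to 4 with DESeq2 and to 0 with its size factors, library totals, the block, either covariate and ZT13 and ZT19 alone, and ran from 0 to 2 without single libraries. With the keratinocyte score the log2 difference between ZT13 and ZT19 moved to 1.31 for Lgals1, 1.60 for Lgals3, -1.25 for Lgals3bp and 1.17 for Lgals9. Without single libraries the lowest and highest values were 0.11 and 0.74 for Lgals1, 2.02 and 2.35 for Lgals3, -0.17 and 0.46 for Lgals3bp, 1.67 and 2.42 for Lgals7, -0.06 and 0.31 for Lgals8 and 0.21 and 0.71 for Lgals9. The number of relations with marker scores that passed went from 2 to 0 with DESeq2 size factors and ran from 0 to 7 without single libraries. The causes were not tested. Of all genes, 569 were called among the 4 time points by DESeq2, 31 with the block, 2 with the keratinocyte score, 49 with the gene share and 57 without the 2 libraries with the highest gene share, against 81, and between ZT13 and ZT19 1775, 58, 0, 54 and 105 against 113. Replicates with the same number were different pools of mice. Deviations from the time-point means had a correlation above 0.1 in 12 of 30 same-numbered pairs. Their r ran from 0.08 to 0.32 between ZT1 and ZT13 and from -0.54 to 0.34 between ZT7 and ZT13. Pairs with different numbers were not compared, so a batch shared by replicates of the same number was not tested. DESeq2, its size factors, the keratinocyte score and the gene share left 5 of the 6 genes higher at ZT19 than at ZT13.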

Other observations

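The genes whose level over the 20 libraries was most like that of each galectin were looked up among 10719 genes with a mean normalized count of at least 100. For Lgals3 they were Urah (r = 0.92), Ly6d (0.89), a surface marker of epithelia and lymphocytes, and Jtb (0.88). For Lgals7 they were Fxyd3 (0.91), an epithelial regulator of the sodium pump, the nucleolar gene Npm1 (0.90) and the ribosomal protein gene Rpl13 (0.88). For Lgals1 they were Mgp (0.88), an inhibitor of calcification in vessel walls, Nfx1 (0.88) and 2900026A02Rik (0.87). For Lgals9 they were the translation factor gene Eif1 (0.95), Ech1 (0.94) and Tm2d2 (0.93). The highest values were lower for Lgals8 (Cetn2 0.79, Zfp622 0.78 and Cd200 0.78) and Lgals3bp (Lmbr1l 0.79, Cpxm2 0.76 and Perm1 0.75). These correlations are across libraries, share the time points and the size factors, and are given as a description of the genes at the top of a ranking.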
